A study of Rattus norvegicus with 12 samples.

Results

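The genes described here encode connexins and the adhesion proteins of the intercalated disc, the contact zone that joins heart muscle cells end to end. They were chosen by name as Gja1, Gja5, Gjc1, Dsp, Jup, Pkp2, Dsg2, Cdh2, Ctnna1 and Ctnnb1, and every transcript row that carried such a name was used. Of these 10 genes, 8 had a row, each with a single transcript, among 17301 gene names and 18752 transcript rows. Dsp and Dsg2 were not analysed here. All 8 listed genes were above 0 in all 12 samples and belonged to the 10950 genes tested.

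RNA was sequenced from adult rat ventricular myocytes (ARVMs) that had been dissociated with collagenase from the hearts of male Sprague Dawley rats and plated on laminin. NR4A2 is an orphan nuclear receptor, and cells of the treated group, Ad-h-NR4A2, were given its human coding sequence by adenovirus, driven by the cytomegalovirus promoter. Control cells, Ad-GFP, received an adenovirus for green fluorescent protein, and both viruses were given at a multiplicity of infection of 50 and left for 48 h. Each group had 6 samples, numbered 24 to 29, from separate experiments with cells of different rats, and levels are given as FPKM, the number of fragments scaled to the length of the transcript and to the fragments mapped in the sample, at a depth of 18800000 to 28000000 fragments per sample.

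Gap junctions are channels built of connexins that pass electrical current and small molecules from myocyte to myocyte. Desmosomes tie the desmin filaments of neighbouring cells together, through desmosomal cadherins on the outside and plakoglobin, plakophilin and desmoplakin on the inside. Adherens junctions do the same for actin, through N-cadherin at the membrane, beta-catenin or plakoglobin bound to its tail, and alpha-catenin as the link to the filament.

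In Ad-h-NR4A2, Jup and Gja1 were lower, at 0.448 and 0.546 times the mean of Ad-GFP. Gjc1 was lower by a smaller step, at 0.722 times, and Ctnna1 was higher, at 1.44 times. Pkp2, Cdh2, Ctnnb1 and Gja5 did not pass the unpaired test. In a fit with samples of the same number as a replicate block, Pkp2 was called too (limma adjusted p = 0.00206). That fit called 5 of 8 genes, against 59.4% of all genes. In the unpaired fit, with limma and an adjusted p below 0.05, 4 of the 8 genes were called, against 40.9% of all genes tested. Of these, 1 was higher, against 19.3% of all genes, and 3 were lower, against 21.7%. As transcript rows, 4 of 8 were called against 39.1% of the 11667 rows tested. Differential expression, which also required a ratio of group means of at least 1.5 in either direction, was reached by 2 genes, Gja1 and Jup, against 15.2%. The 6 values of each group did not overlap for Gjc1, Jup and Ctnna1, 3 of 8 genes, against 21.5% of all genes. The median log2 fold change of the 8 genes was -0.11 and that of all 10950 genes was -0.02, and with 8 genes these shares and medians are a description.

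The Nr4a2 row was used to check the labels. Its FPKM was 0.626 to 1.40 (median 0.787) in Ad-GFP and 445 to 592 (median 533) in Ad-h-NR4A2. All 6 samples given the NR4A2 virus were far above all 6 controls, so that every label fitted its library. The mean went from 0.884 ± 0.309 to 524 ± 70.3 (SD, n = 6 each), a log2 fold change of 9.10 (limma, adjusted p = 6.59e-13). Fragments of the human transgene that aligned to the rat row and fragments of the rat gene cannot be told apart in it.

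**Figure D1:**
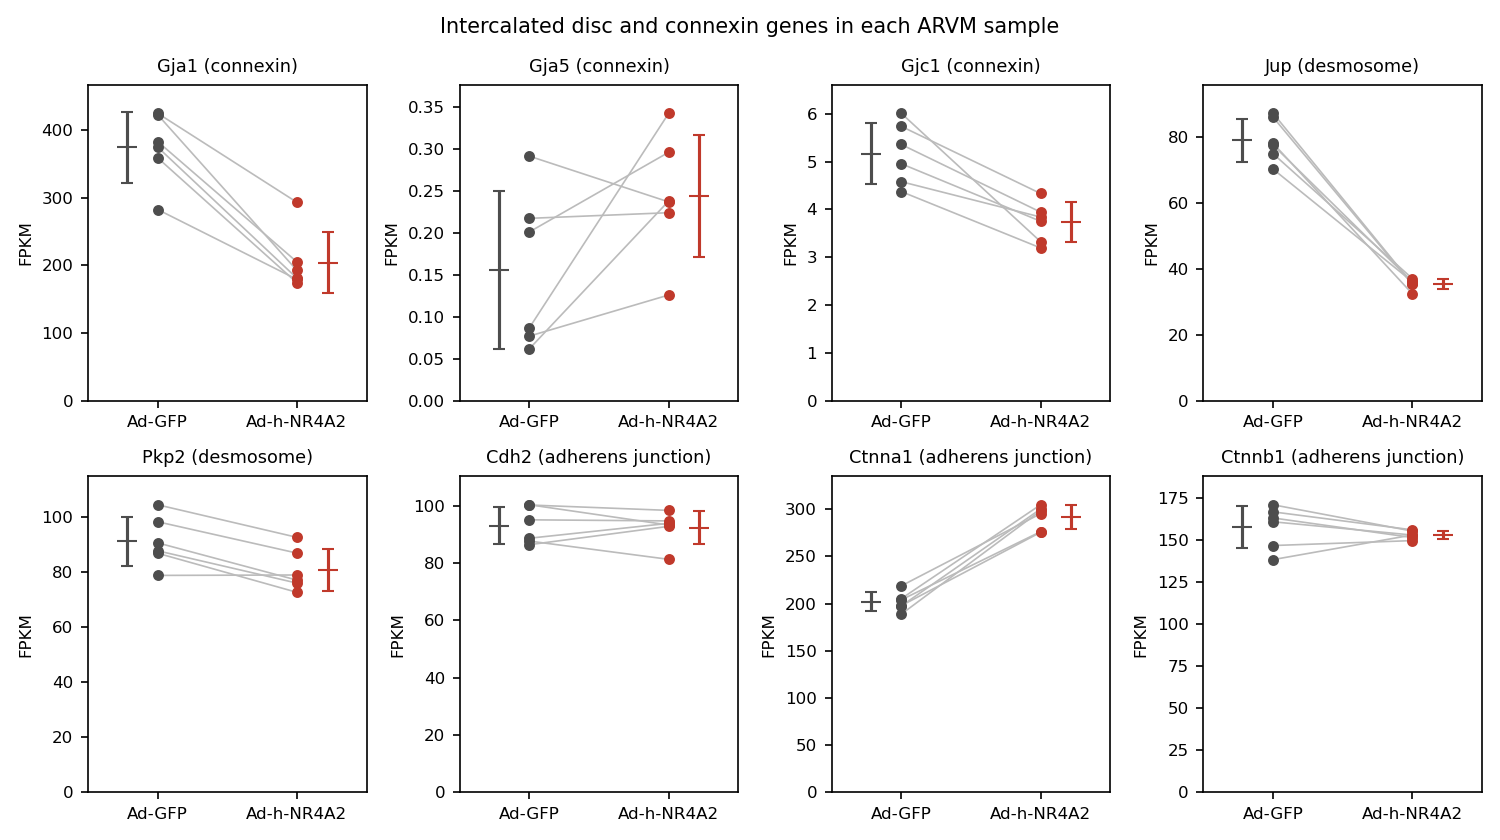
FPKM of the 8 genes in each sample (vertical axes start at 0), with gray points for Ad-GFP, red points for Ad-h-NR4A2, gray lines between samples of the same number, and the mean ± SD of 6 samples beside each group. Jup falls to a narrow band of 32.4 to 37.0, and Ctnna1 rises in all 6 numbers. Gja1 falls in all 6 although the groups overlap between 283 and 293.

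Gja1 encodes the main connexin of working ventricular muscle. Its FPKM in Ad-GFP was 425, 359, 383, 423, 283 and 375 in samples 24 to 29, with a median of 379. In Ad-h-NR4A2 the same numbers had 293, 174, 205, 193, 179 and 181, with a median of 187. Within every number the NR4A2 sample was the lower of the pair, and the groups overlapped only because Ad-h-NR4A2 sample 24 lay above the lowest control, sample 28. The ratio within a number ran from 0.456 for 27 to 0.690 for 24. The mean fell from 374 ± 52.2 to 204 ± 44.9 (SD, n = 6 each). The log2 fold change, taken on log2(FPKM + 0.1) as throughout, was -0.89 (SE 0.13; 95% confidence interval -1.16 to -0.61; limma, adjusted p = 9.57e-05). A two-sided exact permutation test of Gja1 alone gave p = 0.00433, where 0.00216 is the smallest value that 6 against 6 samples allow. Gja1 lies on chromosome 20 at 39612108 to 39624552 (Rn5), and each value rested on at least 12366 fragments. In RNA from a whole culture, fewer cells of a type and less RNA per cell cannot be told apart.

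Gjc1 encodes a connexin best known from the pacemaker and conduction tissue of the heart, and it was found here at a low level. It ranged from 4.37 to 6.01 FPKM (median 5.16) in Ad-GFP and from 3.20 to 4.33 FPKM (median 3.80) in Ad-h-NR4A2. The groups stood apart by a narrow gap, with the lowest control just above the highest NR4A2 sample, and the NR4A2 sample was lower within each of the 6 numbers. The mean fell from 5.17 ± 0.646 to 3.73 ± 0.417 (SD, n = 6 each), a log2 fold change of -0.46 (SE 0.10; limma, adjusted p = 0.00246; exact permutation p = 0.00216). Its place is chromosome 10 at 90573861 to 90685231, and 104 to 218 fragments stood behind a value.

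Gja5 encodes the connexin of the atria and the fast conduction fibers, and in these ventricular cells it was at the lowest level of the 8 genes. It ranged from 0.0622 to 0.292 FPKM (median 0.144) in Ad-GFP and from 0.126 to 0.343 FPKM (median 0.238) in Ad-h-NR4A2. These values stand for 4 to 24 and 8 to 26 fragments. The groups overlapped over most of their range, and the control samples split into 3 low values (24, 26 and 28) and 3 values (25, 27 and 29) within the range of the NR4A2 samples. Gja5 was higher with NR4A2 in 5 of 6 numbers, at a log2 fold change of 0.48 (SE 0.24; limma, adjusted p = 0.127; exact permutation p = 0.0801). At so low a level the size depended on the pseudocount, with a log2 fold change of 0.11 at a pseudocount of 1 and 0.76 at 0.01. Without Ad-GFP sample 29, the highest control, the log2 fold change was 0.62 with a limma adjusted p of 0.0459, the lowest of a range from 0.0459 to 0.256 over the alternatives tried. The gene lies on chromosome 2 at 218648368 to 218669370.

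Summed over the 18 connexin genes listed, the level was 303 to 445 FPKM (median 399) in Ad-GFP and 196 to 313 FPKM (median 206) in Ad-h-NR4A2. Gja1 supplied 93.4 to 95.5% of that sum in Ad-GFP and 89.0 to 93.8% in Ad-h-NR4A2. It was the leading connexin in every sample of both groups. Next came Gja3, a connexin best known from the lens, with 2.94 to 4.82% of the sum in Ad-GFP and 4.49 to 8.62% in Ad-h-NR4A2, although its own level was 14.1 ± 0.665 and 15.0 ± 1.12 FPKM (SD, n = 6 each; log2 fold change 0.09, limma adjusted p = 0.234). Only Gja1, Gja3 and Gjc1 had a mean of at least 1 FPKM, and Gja6, Gjb6, Gjd2 and Gje1 were among those listed at 0 in all samples.

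Jup encodes plakoglobin, a protein that belongs to desmosomes and adherens junctions alike. Its FPKM in Ad-GFP was 70.2, 78.0, 74.9, 87.1, 77.5 and 85.9 in samples 24 to 29. In Ad-h-NR4A2 it was 36.1, 32.4, 37.0, 35.4, 36.1 and 35.3. Every NR4A2 sample was lower than every control, with a wide gap between the groups, and the NR4A2 samples lay closer together than the controls. The mean fell from 78.9 ± 6.5 to 35.4 ± 1.58 (SD, n = 6 each). The log2 fold change was -1.15 (SE 0.06; 95% confidence interval -1.27 to -1.03; limma, adjusted p = 4.65e-09), and the exact permutation p was 0.00216, the smallest possible. Jup lies on chromosome 10 at 88073764 to 88100379, and at least 2536 fragments stood behind each value. It was the only gene of the 8 with a change of at least 2-fold.

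Pkp2 encodes plakophilin-2, which binds the desmosomal cadherins and desmoplakin. Its level ranged from 78.7 to 104 FPKM (median 89.0) in Ad-GFP and from 72.5 to 92.5 FPKM (median 77.9) in Ad-h-NR4A2. The groups overlapped widely, yet the order of the numbers was the same in both apart from 28, and the NR4A2 sample was the lower in 5 of 6 numbers, with 28 level at 78.7 and 78.8. The means were 91.0 ± 9.05 and 80.6 ± 7.52 (SD, n = 6 each), a log2 fold change of -0.17 (SE 0.07; 95% confidence interval -0.33 to -0.02; limma, adjusted p = 0.0738; exact permutation p = 0.0628). With samples of the same number entered as a replicate block in limma, the adjusted p was 0.00206, so that the call changed. The limma adjusted p was also below 0.05 on the TPM scale (0.0482), after quantile normalization (0.0353), without Ad-GFP sample 28 (0.0288) and without Ad-h-NR4A2 sample 27 (0.0301), and it ranged from 0.00206 to 0.1525 over all alternatives. Pkp2 lies on chromosome 11 at 91966047 to 92031277.

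Ctnna1 encodes alpha-catenin of the epithelial type, which couples the cadherin complex to actin. Its FPKM in Ad-GFP was 219, 197, 204, 189, 205 and 198 in samples 24 to 29. In Ad-h-NR4A2 it was 295, 300.1, 276, 298, 305 and 275. All NR4A2 samples were above all controls, by a gap wider than the range of either group. The mean rose from 202 ± 10.1 to 292 ± 12.7 (SD, n = 6 each), a log2 fold change of 0.53 (SE 0.04; 95% confidence interval 0.44 to 0.62; limma, adjusted p = 4.87e-07; exact permutation p = 0.00216). The ratio of 1.44 stayed under the 1.5 used for differential expression. Ctnna1 lies on chromosome 18 at 27633009 to 27766069.

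Cdh2 encodes N-cadherin, the membrane protein to which the catenins bind. It ranged from 86.4 to 100.3 FPKM (median 91.9) in Ad-GFP and from 81.3 to 98.4 FPKM (median 93.6) in Ad-h-NR4A2. The groups covered nearly the same range, with the lowest value of all in Ad-h-NR4A2 sample 25. The means were 93.1 ± 6.34 and 92.4 ± 5.78 (SD, n = 6 each), and the log2 fold change was -0.01 (95% confidence interval -0.13 to 0.11; limma, adjusted p = 0.901). The sign of this value turned when a single sample was left out, at 0.01 without Ad-GFP sample 27 or 29 and 0.03 without Ad-h-NR4A2 sample 25. Cdh2 lies on chromosome 18 at 7997533 to 8218006.

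Ctnnb1 encodes beta-catenin, which binds the tail of N-cadherin and, away from the membrane, serves as the coactivator of Wnt signaling. It ranged from 138 to 171 FPKM (median 162) in Ad-GFP and from 149.8 to 156 FPKM (median 153) in Ad-h-NR4A2. The NR4A2 samples all fell inside the range of the controls. The means were 158 ± 12.6 and 153 ± 2.37 (SD, n = 6 each), and the log2 fold change was -0.04 (95% confidence interval -0.15 to 0.07; limma, adjusted p = 0.555). Ctnnb1 lies on chromosome 8 at 128815303 to 128824812.

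Since FPKM is a level per length of transcript, the genes can be ranked within a group. The order of mean FPKM in Ad-GFP was Gja1 (374), Ctnna1 (202), Ctnnb1 (158), Cdh2 (93.1), Pkp2 (91.0), Jup (78.9), Gjc1 (5.17) and Gja5 (0.156). Cdh2 and Pkp2 were not separated there, Cdh2 being the higher in 3 of 6 samples, and the ranges of Pkp2 and Jup overlapped although Pkp2 was the higher in all 6 samples. In Ad-h-NR4A2, Ctnna1 (292) stood first and Gja1 (204) next, followed by Ctnnb1 (153), Cdh2 (92.4), Pkp2 (80.6), Jup (35.4), Gjc1 (3.73) and Gja5 (0.244). The ranges of Ctnna1 and Gja1 overlapped, and those of Cdh2 and Pkp2 did too, but within each of the 6 samples the order held. All other neighbours in the order of either group had separate ranges.

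The balance between partners was taken as ratios of FPKM within each sample, chosen after the values were seen and given as a description. Jup over Ctnnb1, the catenins that compete for the cadherin tail, was 0.421 to 0.620 (median 0.472) in Ad-GFP and 0.212 to 0.244 (median 0.232) in Ad-h-NR4A2. Ctnna1 over Ctnnb1 was 1.2 to 1.43 (median 1.27) in Ad-GFP and 1.80 to 1.99 (median 1.92) in Ad-h-NR4A2. Neither ratio overlapped between the groups. Jup over Pkp2, the pair of desmosomal plaque genes listed, was 0.801 to 0.985 and 0.383 to 0.511. Ctnna1 over Gja1 was 0.446 to 0.726 in Ad-GFP and 1.01 to 1.72 in Ad-h-NR4A2, with the lowest NR4A2 value again in sample 24.

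**Figure D2:**
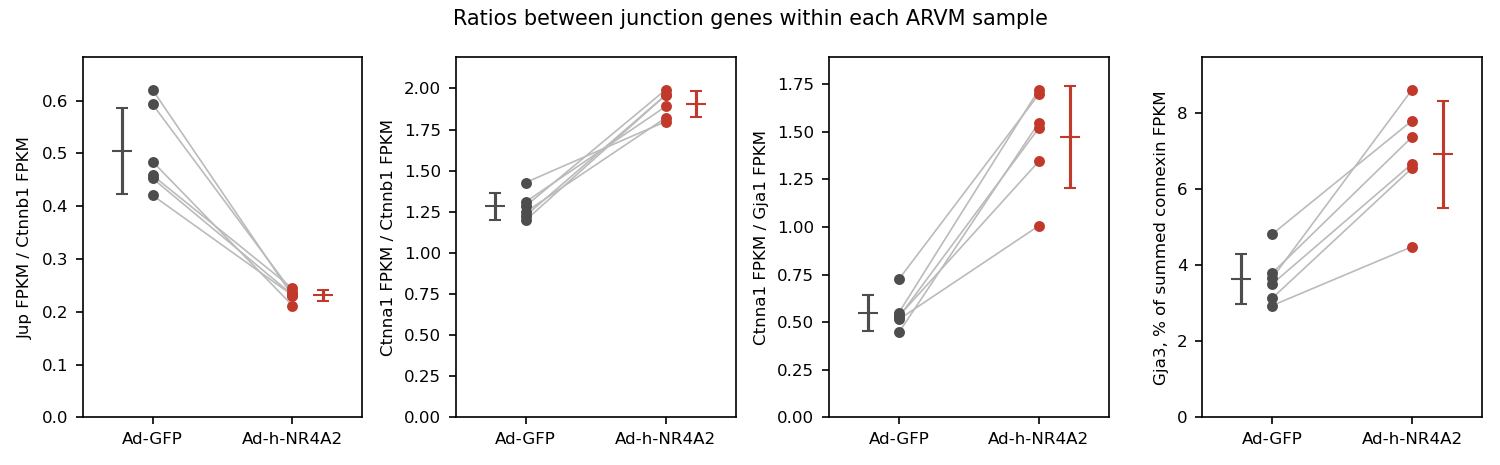
Ratios of FPKM within each sample for Jup over Ctnnb1, Ctnna1 over Ctnnb1 and Ctnna1 over Gja1, and the percentage of summed connexin FPKM that came from Gja3 (gray, Ad-GFP; red, Ad-h-NR4A2; gray lines join equal sample numbers; bars are mean ± SD of 6 samples). The first 3 panels have no overlap between groups, and in the last panel the groups overlap between 4.49% and 4.82%.

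Beyond these genes, 5 lists of other junction genes held 57 tested genes, of which 8 were higher, 20 were lower and 11 were differentially expressed, where the shares over all genes were 19.3%, 21.7% and 15.2%. When samples of the same number formed a replicate block, 37 of the 57 were called, and 6509 of all 10950 genes (59.4%). Among other connexins and pannexins none of 5 tested genes was called (limma, median log2 fold change -0.01), and under the block Panx2, a large-pore channel protein, was called (3.97 ± 0.655 and 3.40 ± 0.304 FPKM; limma adjusted p = 0.140 without the block and 0.0168 with it). Of 6 other desmosome and desmin anchorage genes, Des, the intermediate filament that desmosomes hold, was the only one called, from 2440.4 ± 158 to 1988 ± 94.5 FPKM (SD, n = 6 each; log2 fold change -0.29; limma adjusted p = 0.000526). The block added Ppl, a plakin found at low level (0.193 and 0.0812 FPKM; limma adjusted p = 0.0632 without the block and 0.0145 with it).

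Of 11 other adherens junction genes, 2 were higher and 4 were lower, against 19.3% and 21.7% of all genes. The replicate block added Cdh11 (lower, limma adjusted p = 0.184 without the block and 0.0401 with it). With the block 59.4% of all genes were called, and 7 of these 11. Pvrl3, a nectin that sets up cell contacts next to cadherins, was the only one differentially expressed, from 3.52 to 5.05 FPKM in Ad-GFP and 16.7 to 23.5 FPKM in Ad-h-NR4A2 (ratio 5.26; log2 fold change 2.37; limma adjusted p = 2.52e-09). Its 6 NR4A2 samples were far above all controls. Another nectin, Pvrl2, was lower at 3.06 ± 0.256 and 2.09 ± 0.168 FPKM (log2 fold change -0.53; limma adjusted p = 0.000231), without overlap. The calls of the 4 others, Ctnnd1 (higher) and Cdh13, Arvcf and Vcl (lower), had log2 fold changes of 0.16, -0.27, -0.25 and -0.17 and were named with Pvrl2 after their values were seen. Leaving out each of the 12 samples in turn ended the call of Cdh13 in 10 fits, of Ctnnd1 in 8, of Vcl in 4 and of Arvcf in 2, with a highest adjusted p of 0.103, 0.0824, 0.0696 and 0.0510. Cdh13 also lost its call at a pseudocount of 1 (limma adjusted p = 0.0513), with no filter on low values (0.102), after quantile normalization (0.0675) and without trend (0.0614), Ctnnd1 on the TPM scale (0.0905) and Vcl with no filter (0.0554). All these fits were unpaired, and within numbers each of the 4 genes moved the same way in 6 of 6, with limma adjusted p under the replicate block of 0.000187 for Cdh13, 0.00195 for Ctnnd1, 0.00181 for Vcl and 0.000365 for Arvcf. Vcl, vinculin at the actin side of the junction, was the most abundant of this list at 109.2 ± 5.14 and 97.3 ± 8.81 FPKM (log2 fold change -0.17; limma adjusted p = 0.0299).

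The 21 tested scaffold and actin-linking genes of the disc had 4 higher and 10 lower genes, with 8 differentially expressed. The shares over all tested genes were 19.3%, 21.7% and 15.2%. The replicate block added Cxadr, Fermt2, Vasp and Tmem65. Under it 18 of the 21 were called, 7 higher and 11 lower, where 59.4% of all genes were called. Lmo7, which binds afadin, the actin linker of the nectins, ranged from 46.0 to 66.7 FPKM in Ad-GFP and from 175 to 315 FPKM in Ad-h-NR4A2 (ratio 4.15; log2 fold change 2.03; limma adjusted p = 5.35e-08). Bves, a membrane protein of the Popeye family, rose from 24.4 ± 2.57 to 39.7 ± 2.68 FPKM (log2 fold change 0.70; limma adjusted p = 3.84e-06). Neither gene had overlapping groups, and both were higher in 6 of 6 numbers. Lower were Xirp2, an actin-binding protein of the disc, from 152 ± 14.2 to 93.2 ± 10.1 FPKM (log2 fold change -0.71), and Ank3, an ankyrin that anchors membrane proteins to the cytoskeleton, from 11.1 ± 1.5 to 6.49 ± 0.684 FPKM (log2 fold change -0.76; limma adjusted p = 1.03e-05 and 3.06e-05). Also called, with ratios inside the 1.5 limit, were Enah and Popdc2 (higher) and Tjp1, Nrap, Zyx and Magi1 (lower), named after their values were seen. Of these, Tjp1 lost its call in 8 of the 12 fits that left out a sample, and Popdc2 in 9, with a highest adjusted p of 0.0732 and 0.109, although both moved the same way in 6 of 6 numbers and had a limma adjusted p of 0.00241 and 0.00018 under the replicate block. Popdc2 also lost its call at a pseudocount of 1 (limma adjusted p = 0.0508), with no filter on low values (0.107), on the TPM scale (0.0912), after quantile normalization (0.0881) and in limma without trend (0.0678).

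Dlg1, a scaffold protein that gathers membrane channels, had a log2 fold change of -0.63, and Tmem43, a nuclear envelope protein linked to inherited arrhythmogenic cardiomyopathy, one of -0.72 (limma adjusted p = 0.00013 and 0.001). Fhl2 was the most abundant of the list over all 12 samples, although Lmo7 was above it in Ad-h-NR4A2 at 234 FPKM; Fhl2 was at 212 ± 34.0 and 193 ± 27.5 FPKM (limma adjusted p = 0.393).

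Among 14 genes for the turnover of connexins and beta-catenin, 2 were higher (Src and Ctnnbip1) and 5 were lower (Nedd4, Apc, Axin1, Adam10 and Adam17). Adam10, a membrane protease that can cut N-cadherin, fell from 18.8 ± 1.67 to 11.3 ± 0.851 FPKM (log2 fold change -0.73; limma adjusted p = 2.15e-06). Src, a kinase that can phosphorylate connexins, was at 0.665 to 1.04 FPKM in Ad-GFP and 0.927 to 2.12 FPKM in Ad-h-NR4A2 (log2 fold change 0.63; limma adjusted p = 0.0194), with overlapping groups. Nedd4, a ubiquitin ligase that binds the product of Gja1, was the most abundant at 239.6 ± 17.0 and 186 ± 10.8 FPKM (log2 fold change -0.37; limma adjusted p = 0.000104). The call of Apc, a part of the complex that marks beta-catenin for degradation, was lost without Ad-GFP sample 28 (limma adjusted p = 0.0509) but not under the replicate block (0.00266). Ctnnbip1, Apc, Axin1, Adam17, Cav3 and Csnk1d were named after their values were seen.

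**Figure D3:**
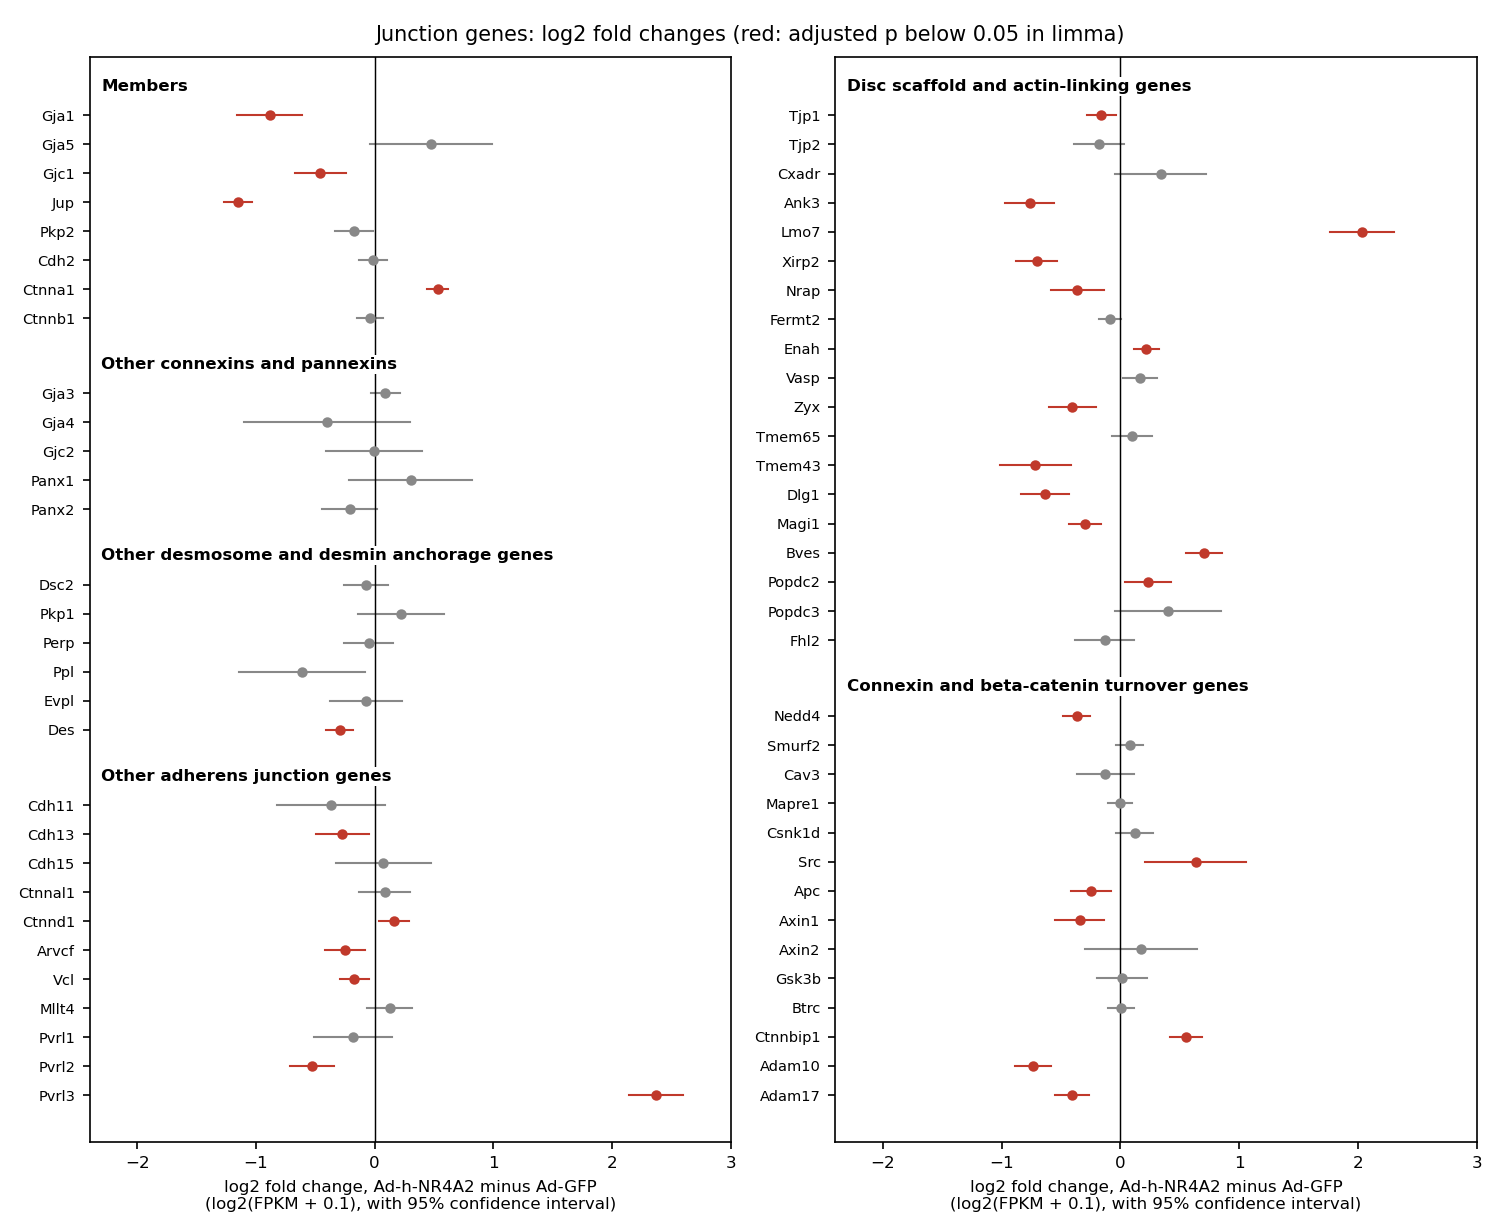
Log2 fold changes of Ad-h-NR4A2 against Ad-GFP on log2(FPKM + 0.1) with 95% confidence intervals, for the 8 genes described here and tested genes of the 5 lists; red marks an adjusted p below 0.05 in limma and gray the rest. Jup at -1.15 and Gja1 at -0.89 are the lowest of the genes shown, and Pvrl3 at 2.37 and Lmo7 at 2.03 are the highest.

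Marker genes of the cell types that such a culture could hold were set beside these results. All 8 cardiomyocyte markers were high, with Tnni3 the most abundant at 9196 ± 1259 and 7880.0 ± 1033 FPKM, and their summed FPKM was 19447.5 to 24952 (median 22659.9) in Ad-GFP and 17223 to 20869.7 (median 18321) in Ad-h-NR4A2. Within numbers this sum was lower with NR4A2 in 6 of 6, as was Tnni3 (limma adjusted p = 0.119, and 0.00241 under the replicate block). Of these 8, Actn2 was higher, and Myh6, Myh7, Tnnt2, Ryr2 and Pln were lower in limma. The defining markers of the labelled cell type were thus present in every sample, and the part that the lower contractile transcripts had in the lower Jup, Gja1 and Gjc1 was not tested. Atrial and conduction markers mark the cells where Gja5 and Gjc1 are best known. They summed to 85.8 to 412 FPKM in Ad-GFP and 89.0 to 414 FPKM in Ad-h-NR4A2, with Myl4 alone called (lower). Nppa made up most of this sum, with medians of 162 and 180 FPKM where the medians of the sum were 183 and 201. Within numbers this sum was higher with NR4A2 in 6 of 6, as was Nppa, which was called higher under the replicate block, while Sln and Hcn4 were called lower there (limma adjusted p = 0.00298, 0.0226 and 0.00296).

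Fibroblast markers summed to 9.22 to 30.7 FPKM in Ad-GFP and 5.85 to 26.9 FPKM in Ad-h-NR4A2, led by Vim, with Col1a2 listed at 0 in all samples and Col3a1 the 1 lower gene of 7 tested. Endothelial markers summed to 6.95 to 21.4 and 5.90 to 20.7 FPKM, led by Kdr, with none of 6 called. The ranges of both sums overlapped between the groups, and within the numbers each sum was lower with NR4A2 in 5 of 6. With pairs as a replicate block, Col3a1, Col1a1, Pdgfra and Kdr were called lower (limma adjusted p = 0.00178, 0.00616, 0.0101 and 0.00409), and their part in the lower Jup, Gja1 and Gjc1 was not tested. Smooth muscle markers summed to 7.07 to 20.3 and 6.86 to 16.5 FPKM, with Myh11 the 1 lower gene of 3 tested. Within numbers this sum was lower with NR4A2 in 5 of 6, and Myh11 in 6 of 6 (limma adjusted p = 0.00284, and 5.22e-05 under the replicate block). The part of these markers in the lower Jup, Gja1 and Gjc1 was not tested. Acta2 had the highest mean of the smooth muscle markers through both samples numbered 24 (12.7 and 11.0 FPKM), which also set the upper ends of the sums. Its medians of 3.1 and 2.96 FPKM were below the 3.13 of Tagln in either group. Macrophage markers summed to 5.95 to 17.2 FPKM in Ad-GFP and 37.0 to 44.2 FPKM in Ad-h-NR4A2, nearly all of it Csf1r. This gene, the receptor for a macrophage growth factor, rose from 10.1 ± 3.87 to 40.2 ± 2.35 FPKM (limma adjusted p = 2.15e-06), while Cd68 was at 0.463 ± 0.194 and 0.482 ± 0.210 FPKM (limma adjusted p = 0.905) and Cd163 and Ptprc, each at or near 0, were not tested. Under the replicate block, limma called 7 of the 8 cardiomyocyte, 4 of 6 atrial and conduction, 3 of 7 fibroblast, 1 of 6 endothelial, 1 of 3 smooth muscle and 1 of 2 macrophage markers, where 59.4% of all genes were called with the block and 40.9% without it.

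The genes whose deviations from the group means were most like those of Gja1 over the 12 samples, among 5728 genes with a mean of at least 10 FPKM, were Slc29a1 (Pearson r = 0.954), Gata5 (0.941) and G0s2 (0.930). For Cdh2 they were Ahnak (0.932), Map3k3 (0.920) and Anxa6 (0.918). These correlations are a description, since the highest were picked from many.

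Promoter sequences from RefSeq (build GRCr8) were matched for 4 of the 8 genes, Gja1, Gja5, Jup and Ctnnb1, and the 250 bases before the start were searched on both strands. None of the 4 held AAAGGTCA, the letters that NR4A receptors bind as monomers, which were found in 1.24% of 33469 promoters of that length. The AP-1 letters TGANTCA were found in Gja1 (6.34% of promoters) and the GC box GGGCGG in Gja5 and Jup (30.5%), and no matches overlapped. The promoters of Gja1 (chr20:36302314-36302563, plus strand) and Jup (chr10:85827430-85827679, minus strand) are shown because these were the 2 differentially expressed genes. Capitals mark the AP-1 letters, which begin 58 bases before the start of Gja1, and the GC box, which begins 94 bases before the start of Jup. A match is only a description of the letters.
Gja1: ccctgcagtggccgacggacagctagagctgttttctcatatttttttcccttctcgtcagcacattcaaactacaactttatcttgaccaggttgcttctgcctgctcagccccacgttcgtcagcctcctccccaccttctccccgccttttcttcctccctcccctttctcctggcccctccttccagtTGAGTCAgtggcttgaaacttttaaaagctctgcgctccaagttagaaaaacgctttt
Jup: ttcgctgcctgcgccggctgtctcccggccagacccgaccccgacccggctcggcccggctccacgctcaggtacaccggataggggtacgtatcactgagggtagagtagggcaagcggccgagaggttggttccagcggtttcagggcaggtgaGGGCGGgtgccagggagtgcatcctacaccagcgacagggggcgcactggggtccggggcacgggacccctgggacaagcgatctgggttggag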

How the data were processed

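RNA of 12 ARVM cultures was sequenced by the authors from stranded libraries in a single paired-end run, aligned to Rn5 (RefSeq) with STAR and quantified per transcript with Cufflinks. Their deposited values are FPKM and were used without further scaling. Groups and the numbers 24 to 29 came from the sample labels. A gene was represented by its most abundant transcript, and the 10950 genes above 0 in all samples were tested on log2(FPKM + 0.1). The test was limma 3.58.1 (lmFit, eBayes with trend, in R 4.3.3), unpaired and two-sided, with Benjamini-Hochberg adjustment over all of these genes. The fit was tried on simulated data without pairs, with 200 changed genes of a mean of at least 1 FPKM. It recovered 197 of them at a log2 change of 1.5 and 156 at 0.6, with 7 false calls each. Member genes were also compared by an exact permutation test over all assignments of 6 and 6 samples (SciPy 1.17.1). Tables and plots used Python 3.11.15, pandas 2.3.3, NumPy 2.4.6 and Matplotlib 3.10.9. Samples of the same number deviated together (Pearson r of 0.347 to 0.623 over 10950 genes for the 6 pairs, and at most 0.189 for other pairs), so the numbers pair the samples, and a fit with pairs as a replicate block was tried as well. Depth was recovered from the steps of low values, 99.2 to 99.8% of which were whole within 0.05 fragments; fragment numbers cover counting error only. Named were all 10 members, Nr4a2, the differentially expressed and the most abundant genes of each list, the most abundant markers and markers at 0 throughout, and the 3 genes most like Gja1 and Cdh2 each (the rule also held Dsp, which had no row). A few genes of these lists enter the counts but are not reported here by name. The members and lists were chosen with earlier results of these data known.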

Additional observations from a re-analysis of the deposited data

Results flagged for a closer look

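Among 31 named genes in 2 groups each, 62 groups were examined for a sample whose gap to its nearest neighbour, as a share of the range of the 6 samples, exceeded Dixon's 95% limit. Such a gap was found in 7 groups, and chance alone gives it in about 1 in 20 groups.

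Gja1 was at 293.3 FPKM in Ad-h-NR4A2 sample 24, while the 5 others of that group were at 174 to 205. Without this sample the log2 fold change of Gja1 was -0.99 in place of -0.89 (limma adjusted p = 3.6e-06, in a range of 3.6e-06 to 0.000857 over all alternatives). Cdh2 was at 81.29 FPKM in Ad-h-NR4A2 sample 25, below the 92.8 to 98.4 of the others.

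Vcl was at 119.3 FPKM in Ad-GFP sample 26, above the 105 to 109.6 of the others. Xirp2 was at 123.5 FPKM in Ad-GFP sample 24, below 154 to 160.4 in the others. Adam10 was at 12.88 FPKM in Ad-h-NR4A2 sample 24, above 10.5 to 11.3. Acta2, a smooth muscle marker, stood out in both samples numbered 24, at 12.71 FPKM in Ad-GFP against 1.76 to 4.90 and at 10.99 FPKM in Ad-h-NR4A2 against 1.83 to 5.06. Among these 31 genes, 5 of the 7 values thus belong to number 24, and what sets that pair apart was not tested. Other genes named in this report were not examined in this way, so the share holds for these 31 only.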

How the results depend on the processing

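The directions and calls of Gja1, Gjc1, Jup and Ctnna1 were the same under all 22 alternatives tried for each (pseudocounts of 1 and 0.01, the replicate block, filters on low values, limma without trend, quantile normalization, the TPM scale, other treatments of several transcripts, and each sample left out). Their log2 fold changes ranged from -0.99 to -0.84, -0.50 to -0.38, -1.18 to -1.12 and 0.50 to 0.55. The sign of Cdh2 turned without Ad-GFP sample 27 (0.0116), without Ad-GFP sample 29 (0.0119) and without Ad-h-NR4A2 sample 25 (0.0260), within -0.0312 to 0.0260 over all 12 samples left out; fewer samples made these fits. With a fold-change limit of 2 in place of 1.5, 1 member (Jup) was differentially expressed in place of 2, by construction of the limit. Leaving out each sample gave 4 to 5 called members and 2 to 3 differentially expressed. With the replicate block, 5 of 8 members were called, against 59.4% of all genes, Pkp2 being added at a log2 fold change of -0.17 (limma adjusted p = 0.00206), and it changed no other call among the members. Gja5, at 4 to 26 fragments, ranged from 0.11 to 0.76 in log2 fold change over its alternatives; what part depth has in its spread was not tested.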

Other observations

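Among the junction genes that were left untested because they were at 0 in some samples, Ctnnd2, a catenin of the p120 family best known from neurons, was chosen after its values were seen. It was listed at 0 in Ad-GFP samples 24 to 27 and at 0.00816 and 0.0239 FPKM in 28 and 29, which is at most 3 fragments. In Ad-h-NR4A2 samples 24 to 29 it was at 0.124, 0.269, 0.293, 0.296, 0.138 and 0.291 FPKM, or 12 to 33 fragments. All NR4A2 samples were above all controls at a level far below that of Ctnnd1, its relative in the disc.

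Cxadr, the receptor through which adenoviruses of the common types attach and a protein of the disc, was also picked out after its values were seen. It ranged from 19.3 to 32.8 FPKM (median 22.8) in Ad-GFP and from 24 to 46.3 FPKM (median 29.4) in Ad-h-NR4A2. The groups overlapped, but Cxadr was the higher with NR4A2 in 6 of 6 numbers, at a log2 fold change of 0.34 (limma adjusted p = 0.147, and 0.000213 with samples paired by number in a replicate block).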
